A study of Arabidopsis thaliana with 6 samples.

Results

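The S-locus related and S-domain genes examined here were 9 loci of *Arabidopsis thaliana*, out of 21799 genes with values in the expression table. They were the S-locus related gene *AT3G12000*, the receptor kinase genes *RK1* (*AT1G65790*), *RK2* (*AT1G65800*) and *RK3* (*AT4G21380*), which are also known as *ARK1*, *ARK2* and *ARK3*, the S-domain kinase gene *SD1-29* (*AT1G61380*), and the lectin genes *AT1G78830*, *AT1G78850*, *AT1G78860* and *AT5G03700*. The set was drawn up around *AT3G12000* and *RK1*, which were selected on their CPM values in these same samples, as lower in the mutant than in wild type, and the other 7 were added as relatives by name or domain. Values of the 9 genes in the comparison of the genotypes are therefore given as a description, with no test. All 9 passed the filter on low values described below.

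Inflorescences were harvested until stage 12, the stage at which the transmitting tract has formed and pollen has not yet been received. The *stk ces-4 bee1 bee3* quadruple mutant carries mutant alleles of *BRASSINOSTEROID ENHANCED EXPRESSION1*, *BRASSINOSTEROID ENHANCED EXPRESSION3*, *SEEDSTICK* and *CESTA* and was sequenced in 3 biological replicates. Wild-type Col-0, the accession in which all of these alleles were studied, was also sequenced in 3. Each replicate was 1 g of tissue from a pool of plants. The number of independent quadruple lines is not given, so anything else that these plants share cannot be told apart from the 4 mutations. One protocol label on some samples names the *ces* allele differently, and the genotype given by the sample titles was used.

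S-domain proteins carry a lectin-like extracellular region named after the S-locus glycoproteins of *Brassica*. In *Brassica* self-incompatibility, a receptor kinase of the stigma papilla, SRK, binds a small cysteine-rich ligand from the pollen coat, SCR, when both come from the same S haplotype, and the pollen is then rejected. SLR1 is a secreted glycoprotein of the *Brassica* stigma that resembles SRK outside the cell but has no kinase domain and is not encoded at the S locus. *Arabidopsis thaliana* is self-fertile. The RK kinases are close relatives of SRK in its genome, and SD1-29, also called LORE, senses medium-chain 3-hydroxy fatty acids of bacteria in leaf immunity.

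The label of the set was checked against the reference annotation of TAIR10.1. An S-locus glycoprotein domain was annotated for *AT3G12000*, *RK1*, *RK2*, *RK3*, *SD1-29* and *AT5G03700*. It was not annotated for *AT1G78830*, *AT1G78850* or *AT1G78860*, which have a curculin-like mannose-binding lectin domain with a PAN-2 or an Apple-like domain, and these 3 are called lectin genes below. A protein kinase domain was annotated for *RK1*, *RK2*, *RK3* and *SD1-29* alone among the 9. *AT3G12000* lies on chromosome 3 (chr3:3818046-3819642, minus strand) in a single exon of 1597 bases, of which 1320 are coding. *RK1* (chr1:24468770-24472475) and *RK2* (chr1:24472873-24476891) are neighbours on the plus strand of chromosome 1, each with 7 exons. *RK3* (chr4:11388827-11393226) and *SD1-29* (chr1:22645923-22650072) also have 7 exons and lie on the minus strand. The lectin genes *AT1G78830* (chr1:29636818-29638773), *AT1G78850* (chr1:29641860-29643535) and *AT1G78860* (chr1:29646003-29647691) form a cluster on the minus strand of chromosome 1, with 1 exon each, as has *AT5G03700* (chr5:965562-967432, minus strand).

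The sequence shared by *RK1* and *RK2* matters for their values, because RSEM divides a read that matches several genes between them. Over 2529 aligned coding bases the pair was 90.9% identical, while *RK3* was 82.4% identical to *RK1* over 2527 bases and 82.5% identical to *RK2* over 2538 bases. The longest run that both transcripts hold without a difference was 206 bases, across the junction of exons 5 and 6 (chr1:24471599-24471907 in *RK1* and chr1:24475793-24476101 in *RK2*, TAIR10.1, plus strand, intron not shown). It is printed first, and then the aligned stretch of *RK3* (chr4:11389637-11389938, minus strand), with the 23 bases at which *RK3* differs in capitals.
RK1 and RK2: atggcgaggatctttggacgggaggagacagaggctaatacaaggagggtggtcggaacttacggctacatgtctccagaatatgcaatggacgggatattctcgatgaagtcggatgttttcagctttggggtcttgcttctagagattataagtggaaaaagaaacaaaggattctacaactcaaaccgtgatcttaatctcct
RK3: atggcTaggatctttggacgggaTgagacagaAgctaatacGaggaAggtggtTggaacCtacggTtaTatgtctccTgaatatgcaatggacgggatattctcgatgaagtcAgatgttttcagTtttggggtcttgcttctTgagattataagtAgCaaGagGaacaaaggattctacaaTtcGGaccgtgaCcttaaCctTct
A single read that lies within the first of these could have come from either gene, while the capitals tell the *RK3* stretch from both. The paper counts pairs of reads, so a mate outside the run can still tell *RK1* from *RK2*.

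Of all 50-base windows of the transcripts, 79.1% in *RK1* and 81.6% in *RK2* occurred in no other annotated gene. With 100-base windows these shares were 90.9% and 92.0%, and the only gene sharing windows with *RK1* was *RK2*, and the reverse. All 50-base windows were unique for *RK3*, *SD1-29* and *AT5G03700*. For *AT3G12000* 99.2% were unique, and the rest occurred in the pseudogene *AT1G47440*. *AT1G78830* shared a few windows with *AT1G78820*, the next gene of the cluster, and *AT1G78850* and *AT1G78860* shared a few with each other, leaving 97.4% to 97.6% unique. These lectin genes were 92.1% identical to each other over 1323 coding bases. A mate outside a shared stretch can tell them apart. Their longest shared run, shown because a single read within it could have come from either gene, had 70 bases (chr1:29642763-29642832 in *AT1G78850*, minus strand).
AT1G78850 and AT1G78860: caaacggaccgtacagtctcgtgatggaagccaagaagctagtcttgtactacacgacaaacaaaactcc
With windows of 100 bases every window of *AT3G12000* and of the lectin genes was unique.

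Expression was given in CPM, reads of a gene scaled to a common depth, which the authors scaled to an effective library size and did not log. The spacing of low values gave the worth of a single read, and from it 21.2, 17.4 and 19.2 M reads on the listed genes in quadruple mutant replicates 1, 2 and 3, against 21.1, 15.9 and 17.6 M in wild-type replicates 1, 2 and 3. Taking 3 reads as the least that can be told from 0, the limit was 0.137 to 0.185 CPM, which covers counting error only. The genotypes were compared with limma-trend on log2(CPM + 0.5) for the 21287 genes that exceeded 0.5 CPM in 3 or more samples, and a gene was called at a Benjamini-Hochberg adjusted p under 0.05. Of these genes 28 were called higher and 120 lower, that is 0.695% in either direction and 0.564% lower. The first principal component carried 44.3% of the variance and held the quadruple mutant samples at -31.0 to -8.34 and the wild-type samples at 9.11 to 38.6, with wild-type replicate 2 farthest out. All 4 mutated genes were lower in the mutant, with mean CPM of 3.54% (*BEE3*) to 25.2% (*BEE1*) of wild type, and *STK* at 9.72 to 10.5 CPM in mutant samples against 49.7 to 54.3 CPM in wild type.

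*AT3G12000*, whose product the annotation names as an S-locus related protein SLR1, was nearly absent in the quadruple mutant. It had 0.367, 0.115 and 0.151 CPM in quadruple mutant replicates 1, 2 and 3, against 57.3, 61.3 and 48.9 CPM in the wild-type replicates. In reads this was 8, 2 and 3 in the mutant, against 1246, 994 and 909 in wild type. Mutant replicates 2 and 3 were thus at or under the limit of 3 reads, and every wild-type sample held at least 909 reads of the gene. Pooled over replicates, 13 reads in the mutant against 3149 in wild type put the mutant at 0.395% of the wild-type level once depth is allowed for (exact 95% interval 0.210% to 0.677%, counting error only). This is a 253-fold lower level, with an interval from 148-fold to 476-fold. Mutant replicate 1 held 8 of the 13 mutant reads, and without it the level was 415-fold lower (178-fold to 1278-fold), while leaving out any other sample gave 211-fold to 268-fold. On log2(CPM + 0.5), where a change near 0 looks smaller, the difference was -6.32 (SE 0.17).

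**Figure D1:**
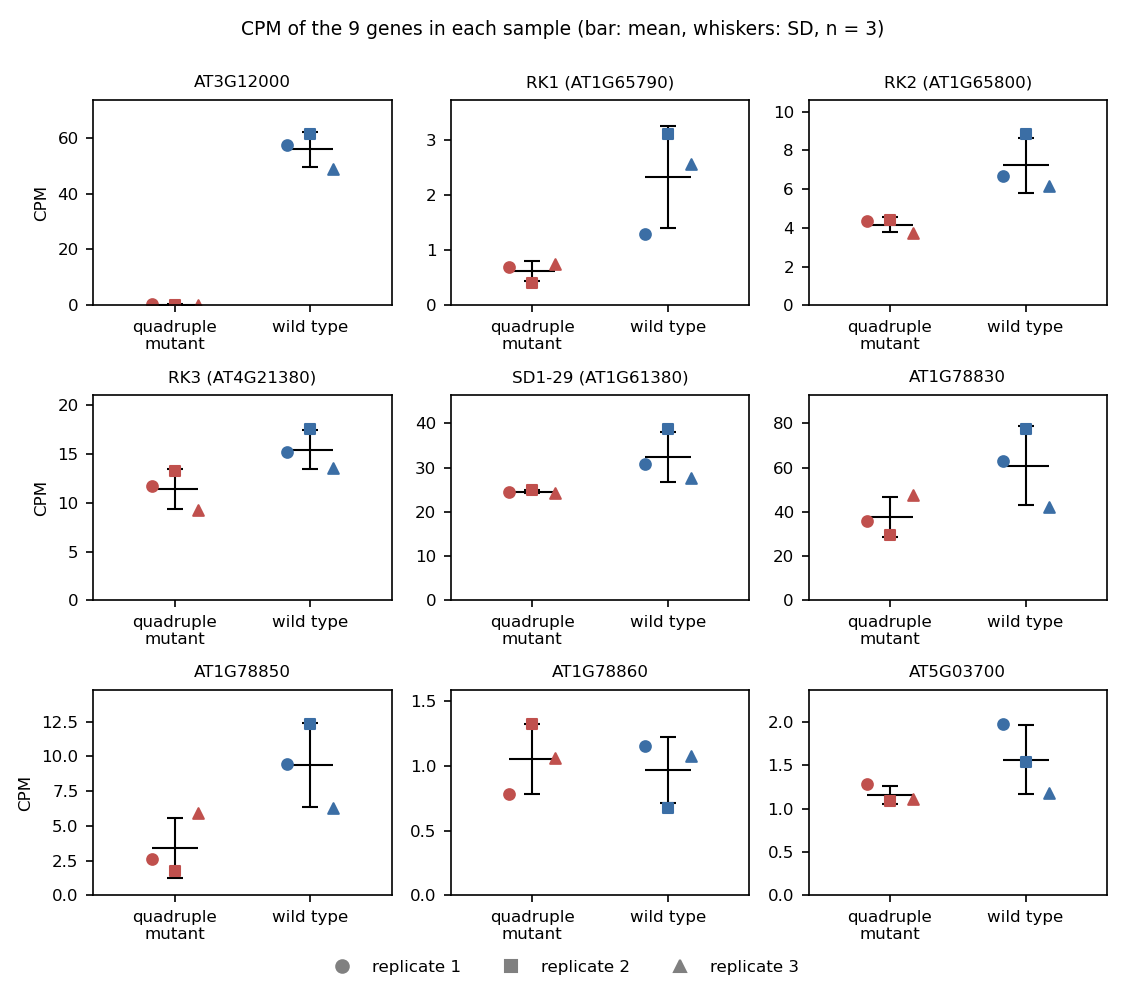
CPM of the 9 genes in each of the 6 samples, with the quadruple mutant left of wild type in each panel, a bar for the mean and whiskers for the SD (n = 3), on linear axes that start at 0. *AT3G12000* lies at 0.115 to 0.367 CPM in the mutant against 48.9 to 61.3 CPM in wild type, and in *AT1G78830*, *AT1G78860* and *AT5G03700* the genotypes overlap.

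Genes beside *AT3G12000* had differences close to 0. The 2 nearest tested genes on its lower side were *MS2* (*AT3G11980*), a fatty acyl reductase gene needed for the pollen wall, with a log2 fold change of -0.19 (SE 0.23), and *AT3G11990*, with -0.20 (SE 0.25). On the other side, *AT3G12010* had 0.06 (SE 0.10) and the kinesin-like gene *AT3G12020* had -0.03 (SE 0.09). None of the 4 was called, with limma adjusted p-values from 0.877 to 0.966.

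The window from 250 bases before to 50 bases after the start of *AT3G12000* (chr3:3819593-3819892, TAIR10.1, minus strand) is printed because CES, BEE1 and BEE3 are bHLH factors, a family that binds E-boxes (CANNTG, the same on both strands), and STK is a MADS-domain factor, a family that binds CArG boxes. E-boxes are in capitals.
AT3G12000: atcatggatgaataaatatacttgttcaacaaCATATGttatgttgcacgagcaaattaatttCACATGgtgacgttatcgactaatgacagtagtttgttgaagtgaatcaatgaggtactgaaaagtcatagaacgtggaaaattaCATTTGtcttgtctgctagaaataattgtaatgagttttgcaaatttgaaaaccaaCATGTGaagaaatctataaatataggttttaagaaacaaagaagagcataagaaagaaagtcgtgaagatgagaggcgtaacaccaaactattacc
It held 4 E-boxes, which begin at positions -218, -187, -102 and -46 relative to the gene start. At least 1 E-box was present in 61.7% of the windows of this length at 27443 protein-coding genes. The share of windows with as many as 4 was not counted, so nothing is read from that number. Among the kinase genes *RK1* had 2 E-boxes, at -95 and -51, *SD1-29* had 2, at -125 and 32, *RK2* had 1, at -58, and *RK3* had 1, at -43. The windows of *AT1G78830*, *AT1G78850*, *AT1G78860* and *AT5G03700* held 0. The G-box CACGTG, which is one form of the E-box, was in 7.68% of all windows and in 0 of the 9. The CArG box was in 3.05% of all windows and in 0 of the 9. It was searched only as CCWWWWWWGG, where W is A or T. Other forms of it, and sites outside the windows, were not counted. The paper scored binding site matrices over longer promoter regions. These matches describe letters in the windows and not binding.

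The RK kinases, relatives of the *Brassica* stigma receptor, were lower in all 3 mutant samples than in all 3 wild-type samples. *RK1* had 0.694, 0.414 and 0.755 CPM in quadruple mutant replicates 1, 2 and 3, against 1.30, 3.12 and 2.56 CPM in wild type. The mutant samples ranged 1.83-fold and the wild-type samples 2.39-fold, without overlap. The mutant mean was 0.621 ± 0.182 CPM and the wild-type mean 2.33 ± 0.929 CPM (SD, n = 3 each), so that the mutant stood at 26.7% of wild type. The log2 fold change was -1.29 (SE 0.28).

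*RK2* had 4.35, 4.42 and 3.73 CPM in the mutant replicates and 6.70, 8.84 and 6.15 CPM in the wild-type replicates. Its mutant mean of 4.16 ± 0.381 CPM was 57.6% of the wild-type mean of 7.23 ± 1.42 CPM (SD, n = 3 each). The log2 fold change of -0.72 (SE 0.16) was smaller than that of *RK1*, but the values of the pair are not independent.

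Reads of *RK1* and *RK2* were fractional in 5 of the 6 samples but summed to whole numbers in each sample, which is what dividing shared reads within the pair gives. The sums were 110, 84 and 89 reads in the mutant replicates and 174, 194 and 162 reads in the wild-type replicates. Of these reads 13.8%, 8.56% and 16.9% were assigned to *RK1* in the mutant, and 16.3%, 26.1% and 29.4% in wild type. Mutant replicate 3 and wild-type replicate 1 overlapped in this share, and how much of the difference of *RK1* came from the division of reads was not tested. The sum of the pair does not depend on that division. It was 5.04, 4.83 and 4.48 CPM in the mutant against 8.0, 12.0 and 8.72 CPM in wild type, with every mutant sample under every wild-type sample. The mutant mean of the sum was 50.05% of wild type, and the sum, a feature that was added with the values known, had a log2 fold change of -0.91 (SE 0.16). The other 7 genes had whole reads, within 0.005 read, in all 6 samples.

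**Figure D2:**
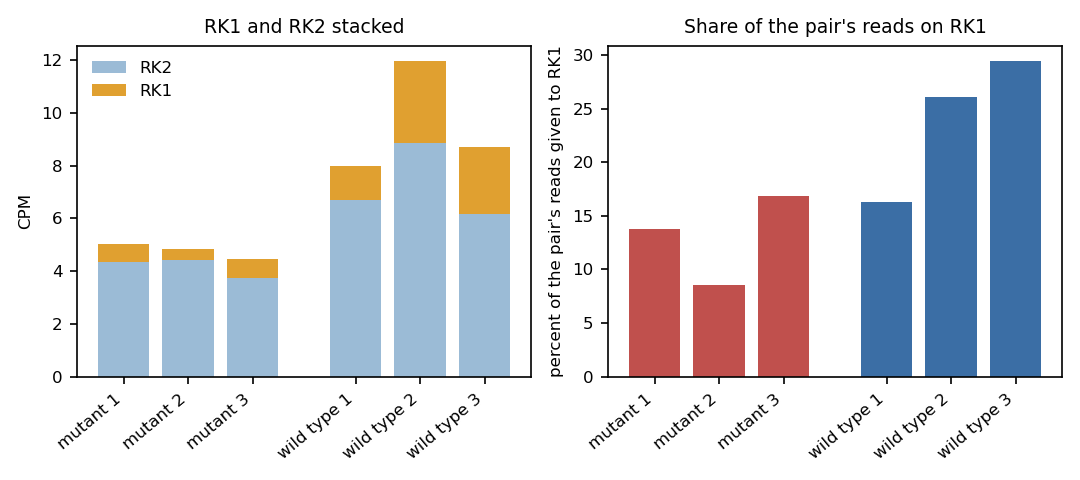
CPM of *RK1* and *RK2* stacked for each sample (left) and the percent of the pair's reads assigned to *RK1* (right), with the quadruple mutant samples left of wild type. The stacks reach 4.48 to 5.04 CPM in the mutant against 8.0 to 12.0 CPM in wild type, while the share of *RK1* overlaps between mutant replicate 3 (16.9%) and wild-type replicate 1 (16.3%).

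*RK3* had 11.7, 13.3 and 9.27 CPM in the mutant replicates and 15.2, 17.6 and 13.6 CPM in the wild-type replicates. The groups were separated by little, with 13.3 CPM as the highest mutant value and 13.6 CPM as the lowest of wild type. The mutant mean was 73.8% of wild type, a log2 fold change of -0.43 (SE 0.15). The gene next to *RK3* in the annotation order, the S-domain kinase gene *B120* (*AT4G21390*), had 0.275, 0.460 and 0.906 CPM in the mutant against 0.230, 2.10 and 0.861 CPM in wild type, with wild-type replicate 2 highest, overlapping groups and a wide error (log2 fold change -0.43, SE 0.43).

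*SD1-29* had 24.5, 24.9 and 24.4 CPM in the mutant replicates, against 30.9, 38.7 and 27.6 CPM in wild type. The mutant samples differed by 1.02-fold between the highest and the lowest, the narrowest range of the 9 genes within either genotype, and the wild-type samples by 1.40-fold. The log2 fold change was -0.38 (SE 0.12), the smallest among the genes whose groups were separated.

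The genes around *RK1* and *RK2* had small differences, with SEs from 0.14 to 0.33. On the lower side, *AT1G65780* had a log2 fold change of -0.14 (SE 0.30) and *YSL7* (*AT1G65730*), a member of the yellow stripe-like metal transporter family, had -0.09 (SE 0.14). *AT1G65810*, beyond *RK2*, had -0.09 (SE 0.33). None of the 3 was called, with limma adjusted p-values from 0.914 to 0.972.

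Among the lectin genes, *AT1G78850* differed most. It had 2.61, 1.78 and 5.89 CPM in the mutant replicates and 9.47, 12.3 and 6.30 CPM in the wild-type replicates. Mutant replicate 3 lay just under wild-type replicate 3, and the other mutant samples lay far below both. The mutant mean of 3.43 ± 2.17 CPM and the wild-type mean of 9.37 ± 3.02 CPM (SD, n = 3 each) gave a log2 fold change of -1.42 (SE 0.36).

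*AT1G78830* was the most highly expressed of the lectin genes, at 35.9, 29.4 and 47.6 CPM in the mutant replicates against 63.0, 77.4 and 42.0 CPM in wild type. Mutant replicate 3 was above wild-type replicate 3, so that the groups overlapped, and the log2 fold change was -0.67 (SE 0.23). Pearson's r of deviations from the genotype means was taken on log2(CPM + 0.5) over the 6 samples, which share their libraries and depth. Among all pairs of the genes examined, r was highest for *AT1G78830* and *AT1G78850* (0.93) and for *RK2* and *SD1-29* (0.92). It was lowest for *AT1G78860* and *AT3G12000* (-0.81). These pairs are named after their values were seen, and with so few samples nothing is read from them.

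*AT1G78860*, the near-identical neighbour of *AT1G78850*, was close to equal in both genotypes. It had 0.779, 1.32 and 1.06 CPM in the mutant and 1.15, 0.678 and 1.08 CPM in wild type, with overlapping groups and a log2 fold change of 0.08 (SE 0.23), the only positive one of the 9. *AT1G78820*, the lectin gene on the other side of *AT1G78830*, had 36.8, 40.1 and 43.4 CPM in the mutant against 35.2, 36.9 and 24.8 CPM in wild type (log2 fold change 0.32, SE 0.15, limma adjusted p = 0.550). *AT5G03700*, which has the S-locus glycoprotein domain but no kinase, had 1.28, 1.09 and 1.11 CPM in the mutant and 1.98, 1.54 and 1.18 CPM in wild type. Its groups overlapped between mutant replicate 1 and wild-type replicate 3, and the log2 fold change was -0.30 (SE 0.20).

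Of the 9 genes, 8 had a negative log2 fold change, beside 10205 of all 21287 tested genes. In 6 of the 9 all 3 mutant values lay under all 3 wild-type values, which held for 7.41% of all tested genes. Without wild-type replicate 2 the count was again 6, against 12.2% of all tested genes. *AT3G12000*, 1 of the 9, was among the 0.564% of tested genes called lower, which its selection fixed. *AT3G12000* and *RK1* were selected in this very contrast and the pair of *RK1* and *RK2* shares reads, so nothing is read from these counts. The median log2 fold change of the 8 genes other than *AT3G12000* was -0.55, beside 0.01 for all tested genes. In bulk inflorescence, fewer cells of a type and less RNA per cell cannot be told apart for any of these values.

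Wild-type replicate 2 held the highest value of the 6 samples in 7 of the 9 genes, as it did in 23.5% of all tested genes. Without this sample the median of the 8 genes was -0.40. The log2 fold change then was -1.08 for *RK1*, -0.57 for *RK2*, -0.33 for *RK3*, -0.24 for *SD1-29*, -0.47 for *AT1G78830*, -1.21 for *AT1G78850*, -0.07 for *AT1G78860* and -0.30 for *AT5G03700*. *AT1G78860* thereby changed sign, as it also did without mutant replicate 2, and the other 7 stayed negative with any sample left out.

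**Figure D3:**
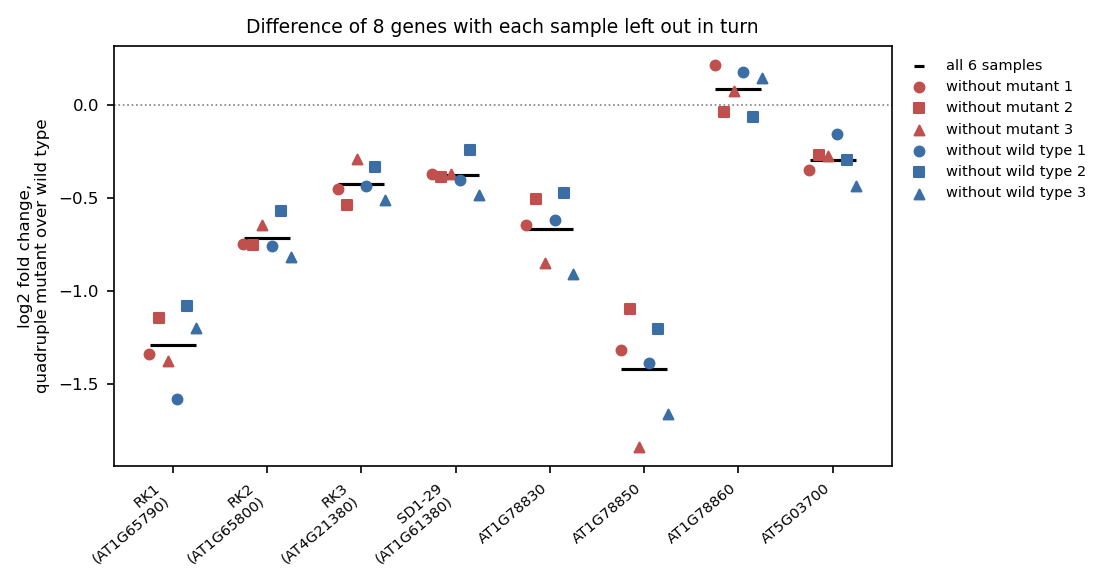
Log2 fold change (quadruple mutant over wild type, log2(CPM + 0.5) scale) of 8 genes with all 6 samples (black bar) and with each sample left out in turn (points, mutant samples in red and wild-type samples in blue). Without wild-type replicate 2 the points of the 4 kinase genes lie nearer 0, at -1.08, -0.57, -0.33 and -0.24, and only *AT1G78860* crosses 0.

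Salicylic acid and immune markers were likewise mostly highest in wild-type replicate 2. Of 12 tested markers 12 had a negative log2 fold change, beside 10205 of all 21287 tested genes. Their median was -0.67, or -0.27 without wild-type replicate 2, which held the highest value in 10 of them. In 6 of the 12 all mutant values lay under all wild-type values, beside 7.41% of all tested genes. Without wild-type replicate 2 this was again 6, beside 12.2% of all tested genes. The summed level of the markers was 131, 118 and 149 CPM in the mutant replicates, against 154, 265 and 142 CPM in wild type. The antimicrobial protein gene *PR5* (log2 fold change -1.44, limma adjusted p = 0.012) and the transcription factor gene *WRKY54* (-1.15, adjusted p = 0.047) were called lower, 2 of the 12 beside 0.564% of all tested genes. Without wild-type replicate 2 their log2 fold changes were -1.36 and -0.94. *PR1*, the defining marker of the response, was at 0 to 0.321 CPM in the 6 samples and was not tested. The part of this difference in the values of the S-domain genes was not tested.

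Regulators of the stigma, style and transmitting tract are here called stigma and style regulators. SRK and SLR1 act in the stigma in *Brassica*. Of 11 tested regulators 3 had a negative log2 fold change, beside 10205 of all 21287 tested genes. None was called, beside 0.695% of all tested genes, and 3 had an unadjusted p under 0.05 (9.31% of all tested genes). The median log2 fold change was 0.21, and 0.12 to 0.18 with a wild-type sample left out. Those with an unadjusted p under 0.05 were *NGA4* (0.50), *HEC3* (0.56) and *SPT* (0.22), all with positive values. The negative ones were *NGA2* (-0.27), *HEC1* (-0.22) and *CRC* (-0.04). All 6 are named here after their values were seen. The summed level of the list was 128, 127 and 124 CPM in the mutant and 122, 119 and 116 CPM in wild type, so that the mutant samples stood above the wild-type samples. *STIG1*, also on the list, was not among the genes in the table.

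Per kilobase of transcript, *AT3G12000* was the first of the 9 genes in wild type and the last in the mutant. In the mutant, *AT1G78830* had the highest level, at 19.2 ± 4.71 CPM per kilobase (SD, n = 3), followed by *SD1-29* at 8.50 ± 0.0982. *RK3* at 3.70 ± 0.657, *AT1G78850* at 2.05 ± 1.30 and *RK2* at 1.30 ± 0.119 followed, where *AT1G78850* overlapped with both of its neighbours in this order. *AT1G78860* at 0.624 and *AT5G03700* at 0.621 overlapped, and so did *RK1* at 0.220 and *AT3G12000* at 0.132.

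In wild type, *AT3G12000* at 35.0 ± 3.95 CPM per kilobase and *AT1G78830* at 31.1 ± 9.09 overlapped at the top. *SD1-29* followed at 11.2 ± 1.97, then *AT1G78850* at 5.59 ± 1.80 and *RK3* at 5.02 ± 0.647, which overlapped, and *RK2* at 2.26 ± 0.444. *AT5G03700* at 0.838, *RK1* at 0.824 and *AT1G78860* at 0.573 were lowest, each overlapping the next. Leaving *AT3G12000* aside, the upper part of the order was thus alike in both genotypes, with *AT1G78830* and *SD1-29* first and *RK3*, *AT1G78850* and *RK2* next.

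**Figure D4:**
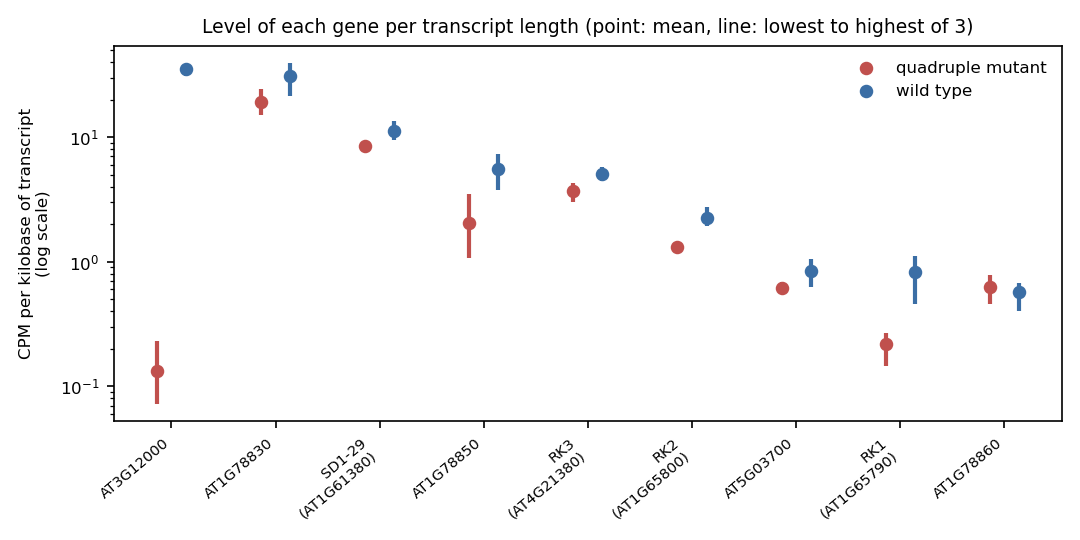
Level of each gene in CPM per kilobase of its longest coding transcript on a log axis, in the quadruple mutant (left of each pair) and in wild type, with points for means and lines from the lowest to the highest of 3 replicates. *AT3G12000* stands at 0.132 in the mutant against 35.0 in wild type, and the other 8 genes lie far closer between the genotypes.

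Other S-domain receptor kinases were taken from the annotation by product name. Outside the 9 genes 23 passed the filter, and 0 of them were called with limma-trend, beside 0.695% of all tested genes. At an unadjusted p under 0.05, 5 were lower and 1 was higher, beside 9.31% of all tested genes in either direction. In the same 5 all mutant values lay under all wild-type values, beside 7.41% of all tested genes. Of the 23, 19 had a negative log2 fold change, beside 10205 of all 21287 tested genes. Their median was -0.16, and -0.12 without wild-type replicate 2, which held the highest value in 13 of them. The kinases with the highest CPM were *AT1G11280* (log2 fold change -0.13, SE 0.09), *AT1G11410* (0.23, SE 0.09) and *AT1G11330* (-0.53, SE 0.15), and their limma adjusted p was 0.768, 0.476 and 0.248.

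The 5 lower kinases, named after their values were seen, were *AT4G27300*, *AT2G19130*, *AT4G11900*, *AT1G11330* and *SD2-5* (*AT4G32300*). *AT4G27300* had 1.97, 1.04 and 1.81 CPM in the mutant against 3.13, 7.64 and 3.23 CPM in wild type (log2 fold change -1.22, SE 0.32, limma adjusted p = 0.206). Wild-type replicate 2 again held the highest value. *SD1-29* is among the S-domain kinase genes whose locus numbers begin with AT1G61. There were 11 others tested, grouped here with their values known. Of these 11, 9 had a negative log2 fold change, beside 10205 of all 21287 tested genes. Their median was -0.13 with a range of -0.35 to 0.25. The groups overlapped in all 11. Of all 21287 tested genes, 1577 had every mutant value under wild type and 1474 every one above, and the rest overlapped. Among kinase genes with numbers that begin with AT1G11, grouped likewise, 4 of 5 were negative, with a median of -0.27 and overlap in 3.

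**Figure D5:**
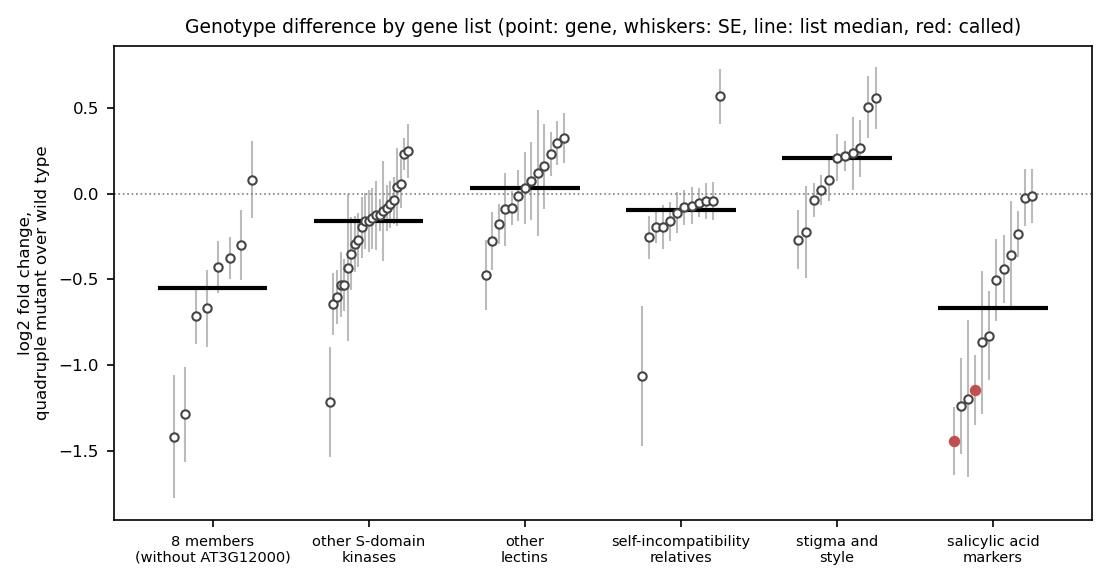
Log2 fold change (quadruple mutant over wild type, log2(CPM + 0.5) scale) with SE for the 8 genes other than *AT3G12000* and for 5 gene lists, each point a gene, each line the list's median, and called genes in red. The median is -0.55 for the 8 genes, -0.16 for other S-domain kinases, 0.03 for other lectins, -0.09 for relatives of self-incompatibility proteins, 0.21 for stigma and style regulators and -0.67 for salicylic acid markers.

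Lectins without a kinase domain gave a list of 13 tested genes outside the 9, with a median log2 fold change of 0.03. Of these 0 were called, beside 0.695% of all tested genes. At an unadjusted p under 0.05, 1 was lower and 1 higher, beside 9.31% of all tested genes. The naming rule took in jacalin-type lectins, which are another family, among them the 3 with the highest CPM, *AT3G16470* (*JR1*, log2 fold change 0.29, SE 0.13), *AT1G52000* (0.23, SE 0.13) and *AT1G19715* (-0.08, SE 0.10). Only 4 of the 13 were annotated with a bulb-type or S-domain lectin region, *AT1G78820*, *AT2G41890*, *AT3G51710* and *AT5G18470*. Their log2 fold changes were 0.32, -0.18, 0.07 and -0.28, with a median of -0.05. The groups overlapped in each, as they did in most of all tested genes.

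Downstream partners were examined last. In *Brassica* the E3 ubiquitin ligase ARC1 binds SRK and targets the exocyst subunit EXO70A1, and the kinase MLPK acts with SRK at the membrane. The 12 tested *Arabidopsis* relatives included *EXO70A1*, plant U-box ligases of the *PUB* family and kinases of the *APK* family. Of these 0 were called with limma-trend, beside 0.695% of all tested genes, so nothing is read from that count. The median log2 fold change was -0.09. The members with the highest CPM were *PUB17* (-0.04, SE 0.11), *PUB9* (-0.08, SE 0.10) and *PUB13* (-0.07, SE 0.11), at a limma adjusted p of 0.951, 0.885 and 0.908, and *EXO70A1* had -0.04 (SE 0.10, adjusted p = 0.947). At an unadjusted p under 0.05, *APK2A* was lower (-1.07, SE 0.41, adjusted p = 0.443) and *PUB18* higher (0.57, SE 0.16, adjusted p = 0.236). That threshold was met by 9.31% of all tested genes, and these are named after their values were seen. *APK2A* had 1.70, 1.50 and 3.37 CPM in the mutant against 3.54, 10.3 and 3.07 CPM in wild type, and its log2 fold change was -0.56 without wild-type replicate 2. *PUB18* had 22.7, 23.7 and 29.3 CPM in the mutant against 14.6, 21.3 and 15.1 CPM in wild type, and was called without wild-type replicate 2 (0.74, SE 0.13, adjusted p = 0.034).

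The genes whose pattern was most like that of *AT3G12000* over the 6 samples, by Pearson's r on log2(CPM + 0.5), were *AT5G19880*, a peroxidase gene, the mutated gene *STK*, *AT4G13266*, the terpene synthase-like gene *AT3G14520*, and *AT3G59850*, a pectin lyase-like gene. For these r was 0.999, 0.998, 0.998, 0.998 and 0.998. *AT5G19880* had 0.0458, 0 and 0.0504 CPM in the mutant against 8.19, 8.88 and 6.83 CPM in wild type, and *AT4G13266* was at 0 CPM in all 3 mutant samples against 3.77, 3.33 and 3.39 CPM in wild type. Each of these patterns was a step between the genotypes with little spread within them, so r describes that step.

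Genes most like *RK1* had far smaller differences. They were *AT5G23520* (r = 0.998), the auxin-inducible gene *ATAUX2-11* (0.996), the cellulose synthase-like gene *CSLE1* (0.996), the zinc finger gene *DOF2* (0.993) and *AT2G04865* (0.989), with log2 fold changes of -0.31, -0.29, -0.40, -0.20 and -0.20. None of the 5 was called with limma-trend. The likeness in *RK1* rests on the order of the samples, with mutant replicate 2 lowest and wild-type replicate 2 highest in most of them, and on a gene whose reads were divided with *RK2*.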

How the data were processed

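Poly(A) RNA of inflorescences was sequenced by the study from directional libraries in 3 biological replicates per genotype. The paper counts the sequencing in pairs of reads. According to the paper's methods and the submitters' processing notes, the authors mapped the reads to TAIR10 with Bowtie2, estimated expression with RSEM and tested with edgeR, with no versions given in the sources used here. Whether strand was used in counting is not given in them either. The deposited values are CPM, which the authors scaled to an effective library size, in 1 table of 21801 rows, of which 2 have no gene or value. The table's log2 fold change, p-value and FDR columns, 3 in all, hold the authors' comparison and were not used.

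Members and lists were chosen with earlier results of these data known. Groups came from the sample titles. Genes over 0.5 CPM in at least 3 samples were tested with limma-trend (limma 3.58.1, R 4.3.3) on log2(CPM + 0.5) with a single factor, genotype, and Benjamini-Hochberg adjustment of the p-values over 21287 genes. The deposited CPM were not turned back into counts for this test. In 5 of the 6 samples fewer than 95% of low values were whole reads (93.8% to 95.2% over all 6, within 0.1 read). Reads given for single genes are the CPM divided by the worth of a single read. Those of *AT3G12000*, used for its interval, were whole within 0.005 read in all 6 samples. The tests were tested on simulated data, in which every gene had the same spread between replicates beyond counting error and no sample stood out. That setting differs from these data, so nothing is read from it. With 3 samples per genotype the smallest two-sided p of an exact permutation test is 0.1, so none was used. P-values measure the spread between these pools.

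The genes named were, by rule, the 9 genes, the 4 mutated genes, called genes and the 3 with the highest mean CPM of each list, the 5 genes most like *AT3G12000* and *RK1*, and the 2 nearest tested genes on each side of these. Others are said to be named after their values were seen, except the markers and the lectin and kinase neighbours of the 9 genes. A match to "lateral organ boundaries-domain" was excluded from the kinase list. Gene models and sequences came from RefSeq's TAIR10.1, in which 21600 of the 21799 genes were found. Transcript windows, local alignments of coding sequences (Biopython 1.88) and motifs were computed from it. Alternatives were other pseudocounts, filters and scalings, a replicate block and leaving out each sample.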

Additional observations from a re-analysis of the deposited data

How the results depend on the processing

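The number of called genes was 148 with all samples and depended most on the samples used. Leaving out a sample gave 61 to 159 calls. The count was 73 and 76 without mutant replicates 1 and 2, 61 when wild-type replicate 1 was dropped and 83 when wild-type replicate 3 was. A fit with a replicate block gave 64. Same-numbered samples of the genotypes did not deviate together (r of -0.11, -0.16 and -0.10 over genes for numbers 1, 2 and 3), so the block was not used elsewhere. Pairs with different numbers had r from -0.16 (mutant 3 with wild type 1) to 0.25 (mutant 2 with wild type 1). Mutant 3 with wild type 2 had 0.19 and mutant 1 with wild type 3 had 0.15. The labels give only a shared number, and a batch in another order was not tested. In the relatives of self-incompatibility proteins the count ranged from 0 to 1 with samples left out, being 1, *PUB18*, without wild-type replicate 2.

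Of 124 log2 fold changes of the 9 genes under the alternatives, 121 moved by less than the spread between replicates and 3 moved by more. Most of them could not have moved by more. Filters, the replicate block and summing *RK1* and *RK2* leave the log2 fold change of a gene as it is. Leaving out a single sample cannot shift it by that spread. Only the pseudocounts and scalings could, so nothing is read from the count of 121. *AT3G12000* was at -7.57 with a pseudocount of 0.1 CPM and at -5.55 with 1 CPM, and *RK1* was at -1.70 with 0.1 CPM, since low values depend on the pseudocount. The count-based tests that were planned were not run, because the table does not give whole reads for enough values. *RK1*, *AT1G78860* and *AT5G03700* lay under 4 CPM, where counting error adds to the spread.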
